A study of Mus musculus with 2 samples.

Results

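The genes described here are 10 ligands, receptors and binding proteins of the insulin-like growth factor (IGF) axis. They are Igf1, Igf2, Igf1r, Igf2r, Insr, Igfbp2, Igfbp3, Igfbp4, Igfbp5 and Igfbp7. They were found by matching gene identifiers without version to mouse gene names, and all 10 were found among 43346 Ensembl genes. No measured value entered the choice of the names, although earlier results of these data were known when they were chosen. The data are total RNA-seq of the heart of B6NCrl mouse embryos, a C57BL/6N substrain, at embryonic day 13.5. They form 1 group of 2 biological replicates with no genetic change and no treatment. Each library came from pooled male and female embryos, and both tissue samples stand under the same donor entry. The whole heart was taken, so fewer cells of a type and less RNA per cell cannot be told apart in any value below.

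IGF1 and IGF2 are secreted peptides related to insulin, and both act through IGF1R, a receptor tyrosine kinase. The insulin receptor also binds IGF2, whereas IGF2R takes IGF2 up and delivers it to lysosomes, which lowers the ligand outside the cell. The IGF-binding proteins hold the ligands in blood and in the extracellular matrix and set how much reaches the receptors. In the embryonic heart, IGF2 made by the epicardium is known as a growth signal for cardiomyocytes, and Igf2 and Igf2r are imprinted genes expressed from opposite parental alleles in most embryonic mouse tissues.

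The estimated reads summed to 36733400 in replicate 1 and 36060765 in replicate 2, with 5.96% and 2.56% of reads on spike-in RNA. TPM, the unit of all levels below, measures abundance per transcript length and can be compared between genes. The TPM sum includes the spike-ins, which held 11.1% and 5.04% of it, and the median protein-coding gene was 0.14 higher in replicate 2 on the log2 TPM scale. All 8 cardiomyocyte markers were at 1 TPM or more in both libraries, Tnnt2 (cardiac troponin T) among them at 4312 and 5086 TPM. The 6 endothelial, 6 epicardial and 6 cushion and fibroblast markers were detected too, whereas 0 of 4 brain markers reached 1 TPM in both libraries. Markers of tissue outside the heart were not all absent: 4 of 5 lung and foregut markers reached 1 TPM in both, with Epcam at 8.93 and 8.31 TPM and Sftpc at 7.89 and 9.37 TPM. The summed level of the 10 hepatocyte markers was 62.9 TPM in the first library and 407 TPM in the second. With 1 group of 2 libraries there was no test between groups and no p-value.

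All 10 genes were detected, which here means 1 TPM or more in both libraries, against 57.3% of the 21474 protein-coding genes. The 10 names were chosen with earlier results known and leave out the binding protein Igfbp1 (0.29 and 2.02 TPM). Their detection therefore does not describe the whole family. The 10 genes spanned from Igf2 at 1105 TPM ± 81.2 (SD, n = 2) to Igf1r at 11.7 TPM ± 0.48 (SD, n = 2). Their order was the same in both libraries. The 2 ligands together held 62.4% ± 0.40 of the summed TPM of the 10 genes, the 5 binding proteins 28.5% ± 0.29 and the 3 receptors 9.10% ± 0.11 (SD, n = 2). Ligand TPM therefore exceeded binding protein TPM by 2.16-fold in replicate 1 and 2.21-fold in replicate 2. Nearly all of the ligand sum was Igf2.

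**Figure D1:**
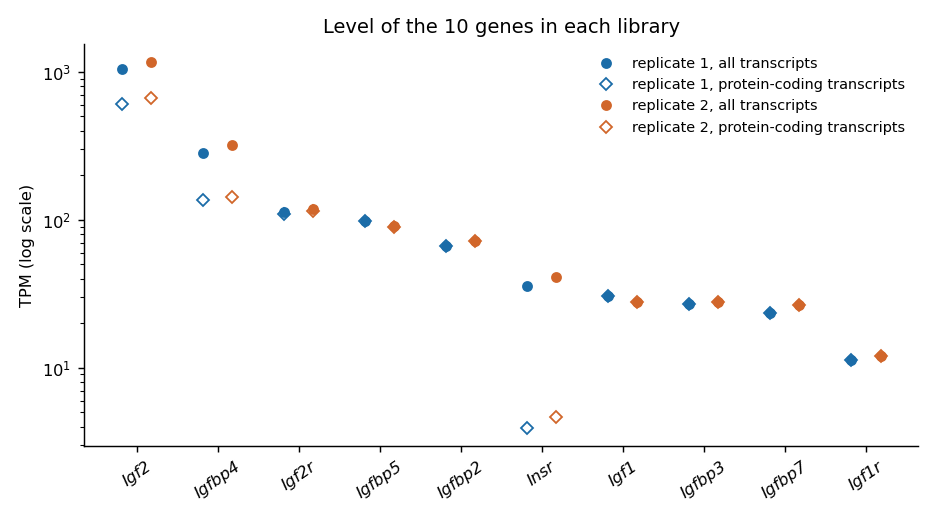
Level of each gene in TPM (log axis) in replicate 1 (blue) and replicate 2 (orange); filled circles count all transcripts of the gene and open diamonds only its protein-coding transcripts. Igf2 was highest at 1048 and 1163 TPM, and the diamonds fall far below the circles for Insr, at 3.91 and 4.64 TPM against 35.8 and 41.0 TPM.

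Igf2, the embryonic ligand, lies on the minus strand of chromosome 7 (chr7:142650766-142666816, GRCm38). It stood at 1048 and 1163 TPM in replicates 1 and 2, from 36724 and 37090 estimated reads. Only 78 of the 21474 protein-coding genes had a higher mean level. The deposited TPM lay above the upper bound of its own credibility interval in both libraries (1044 and 1156 TPM), and the posterior mean was 1028 and 1139 TPM.

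Igf1, the ligand that drives most growth after birth, lies on the plus strand of chromosome 10 (chr10:87858265-87937042). It stood at 30.5 and 28.0 TPM in replicates 1 and 2, a mean of 29.3 TPM ± 1.79 (SD, n = 2). Igf2 exceeded Igf1 by 34.3-fold in replicate 1 and by 41.5-fold in replicate 2, which is a log2 ratio of 5.24 ± 0.19 (SD, n = 2). The difference between the ligands was thus far larger than the spread between libraries. Restricted to protein-coding transcripts, the log2 ratio was 4.44.

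Among the receptors, Igf2r, the scavenger of IGF2, was highest. It lies on the minus strand of chromosome 17 (chr17:12682406-12769664) and stood at 112 and 118 TPM, a mean of 115 TPM ± 4.27 (SD, n = 2). Insr, the insulin receptor (chr8:3122061-3279617, minus strand), stood at 35.8 and 41.0 TPM. Igf1r, the signalling receptor for both ligands (chr7:67952827-68233668, plus strand), was the lowest of the 10 genes at 11.3 and 12.0 TPM.

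Igf2r exceeded Igf1r by 9.93-fold in replicate 1 and 9.87-fold in replicate 2, a log2 ratio of 3.31 ± 0.01 (SD, n = 2). Insr exceeded Igf1r by 3.16-fold and 3.42-fold over all transcripts, a log2 ratio of 1.72 ± 0.08 (SD, n = 2). That direction rested on a non-coding transcript of Insr, described below: over protein-coding transcripts, Igf1r was 2.74-fold higher than Insr and the log2 ratio was -1.45. The only Igf1r transcript listed, Igf1r-201, has a length of 4489 nt in the deposited tables and 11409 nt in GENCODE M21, with 4107 coding bases. How this shorter model moved the Igf1r level was not tested.

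Among the binding proteins, Igfbp4 and Igfbp5 led. Igfbp4, which mostly holds IGFs back from their receptors (chr11:99041244-99054392, plus strand), stood at 285 and 322 TPM. Igfbp5, a matrix-binding member (chr1:72857932-72874884, minus strand), stood at 97.8 and 90.3 TPM. Igfbp4 was 2.92-fold higher than Igfbp5 in replicate 1 and 3.57-fold higher in replicate 2, but the log2 ratio fell from 1.69 to 0.58 over protein-coding transcripts.

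Igfbp2, a binding protein typical of fetal tissues (chr1:72824503-72852474, plus strand), stood at 66.1 and 71.5 TPM. Igfbp3, the main carrier of IGFs in adult blood (chr11:7206086-7213923, minus strand), stood at 26.9 and 27.8 TPM. Igfbp7, a relative with low affinity for IGFs (chr5:77349240-77408041, minus strand), stood at 23.4 and 26.6 TPM. The deposited TPM of Igfbp5, like that of Igf2, lay above its own credibility interval in both libraries. Igfbp3 and Igfbp7 were thus at the level of Igf1, and Igfbp2 was above it. Igfbp2 and Igfbp5 are neighbours on chromosome 1, 5457 bases apart.

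A pair of genes was called apart when the direction was the same in both libraries and the deposited credibility intervals, whose level the files do not state, did not overlap in either. By that rule 42 of the 45 pairs among the 10 genes were apart, against 89.2% of all pairs of detected protein-coding genes. The 3 pairs not called were those among Igf1, Igfbp3 and Igfbp7, whose intervals were apart in replicate 1 but met in replicate 2. So Igf1, Igfbp3 and Igfbp7 formed a group without a firm order, and the other 7 genes stood apart from each other and from these 3. Over protein-coding transcripts alone, 41 pairs kept their direction. The 4 that turned all involved Insr, which moved from the sixth to the last place, below Igf1 (6.86-fold lower), Igfbp3 (6.42-fold), Igfbp7 (5.86-fold) and Igf1r.

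The 9 genes with more than 1 listed transcript had the same leading transcript in both libraries, and in 8 of them it held over 50% of the gene's TPM in both. This was so in 71.5% of the 9054 detected protein-coding genes with at least 2 transcripts. In 5 genes one coding transcript held nearly the whole level: Igf2r-201, Igfbp2-201, Igfbp3-201, Igfbp5-201 and Igfbp7-201 each held between 96.7% and 100%. The other 4, Igf1, Igf2, Igfbp4 and Insr, were divided among transcripts. Insr and Igfbp4 had under 50% of their TPM on protein-coding transcripts in both libraries, as did 9.42% of the genes compared.

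**Figure D2:**
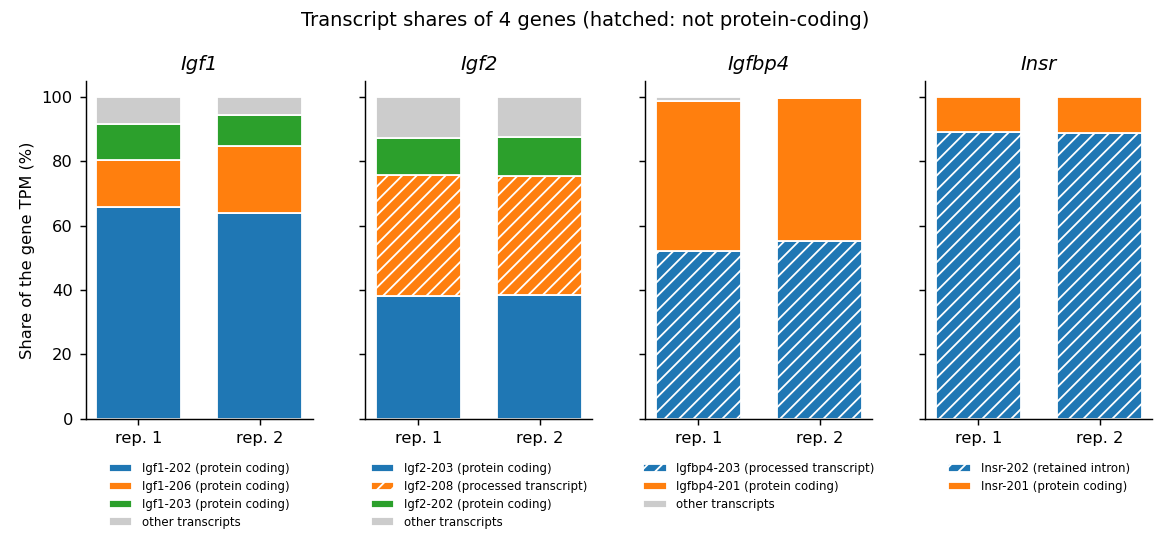
Share of the gene's TPM (%) held by each transcript with at least 10% in either library, for Igf1, Igf2, Igfbp4 and Insr, with replicate 1 and replicate 2 side by side; hatched bars are transcripts not annotated as protein-coding and grey is the sum of all others. The shares of the libraries lie close together except for Igf1-206 (14.5% and 20.8%), and the non-coding Insr-202 holds 89.1% and 88.7% of Insr.

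For Insr, the deposited estimate gave most of the level to Insr-202, a 1675 nt model annotated as a retained intron. It stood at 31.9 and 36.4 TPM, 89.1% and 88.7% of the gene. Insr-201, the 9355 nt transcript that encodes the receptor, stood at 3.91 and 4.64 TPM, 10.9% and 11.3%. In reads the division was closer: Insr-202 had 1472 and 1572 reads and Insr-201 had 1060 and 1177. Insr-202 shares 1397 bases with Insr-201 and adds 278 bases of the third intron. The sequence across this boundary is shown because those intron bases are what separates the models; exon bases are in lower case and the first intron bases in capitals (GENCODE M21, GRCm38, chr8:3211349-3211408, minus strand, 5′ to 3′).
Insr exon 3 to intron 3: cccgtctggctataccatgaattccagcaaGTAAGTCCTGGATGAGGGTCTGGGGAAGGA
The intron opens with GTAAGT, the kind of bases that usually begin an intron, and Insr-202 keeps them. Unspliced precursor RNA and a stable retained-intron transcript cannot be told apart in these tables.

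For Igfbp4, the 785 nt Igfbp4-203, annotated as a processed transcript without a coding frame, stood at 149 and 179 TPM, 52.2% and 55.4% of the gene. The coding transcript Igfbp4-201 (3831 nt) stood at 133 and 143 TPM, 46.7% and 44.5%. By reads the order was the opposite, since Igfbp4-201 held 82.8% and 81.3% of them. Igfbp4-203 shares 757 of its 785 bases with Igfbp4-201, and only its first exon of 28 bases is its own against that transcript (GRCm38, chr11:99043597-99043624, plus strand). That exon is shown because it is what the short model has and the long one lacks; the reads of the other 757 bases were divided between models by the deposited estimate.
Igfbp4-203 first exon: ggtgggcatctagccccaggtgaagatg

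Igf2 was the one gene of the 9 in which no transcript held over 50%. Igf2-203, a 650 nt coding transcript with the most upstream start, stood at 399 and 448 TPM, 38.0% and 38.5% of the gene. Igf2-208, a 958 nt processed transcript, stood at 394 and 431 TPM, 37.6% and 37.1%. Igf2-202, a 2503 nt coding transcript, stood at 120 and 138 TPM, 11.5% and 11.9%. The shares of Igf2-203 and Igf2-208 thus nearly matched in both libraries, with Igf2-203 the higher.

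The 2 leading Igf2 models overlap longer ones almost wholly. All 958 bases of Igf2-208 lie within Igf2-205, the 4722 nt coding transcript, and none of them is coding. Of the 650 bases of Igf2-203, 609 lie within Igf2-205 and 41 do not. Igf2-205 held 28.2% and 25.2% of the reads of Igf2 but 7.29% and 6.34% of its TPM. By reads it led in replicate 1, and Igf2-208 led in replicate 2 with 27.4%, so which Igf2 transcript led depended on the correction for length. Protein-coding transcripts together held 57.5% and 57.6% of Igf2 TPM.

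**Figure D3:**
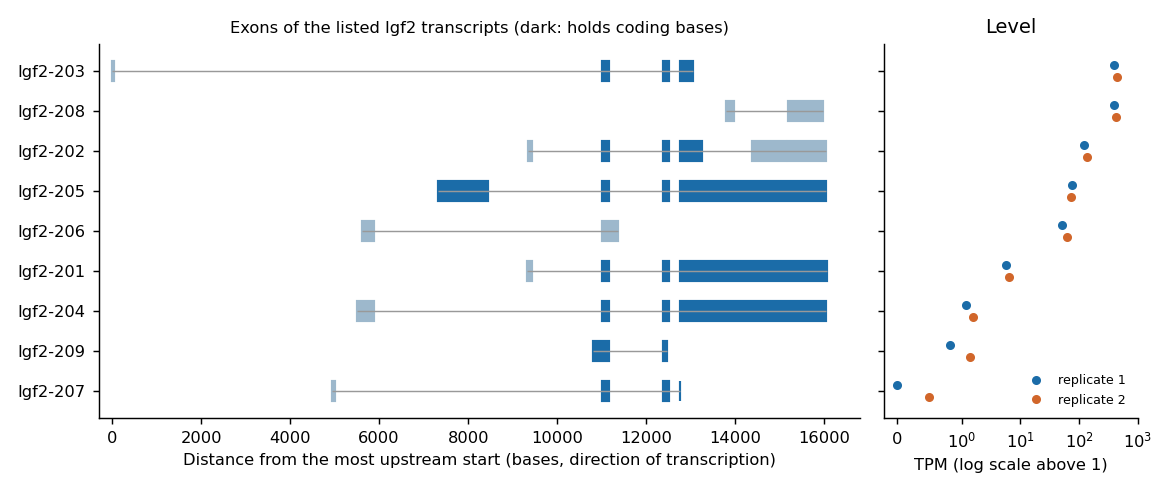
Left: exons of the 9 listed Igf2 transcripts by distance in bases from the most upstream start, in the direction of transcription, with exons that hold coding bases in dark blue and others in light blue. Right: TPM of each transcript in replicate 1 (blue) and replicate 2 (orange), on an axis that is logarithmic above 1; Igf2-203 and Igf2-208 lead at about the same level, and Igf2-208 lies 13786 bases downstream in the 3′ part of the gene.

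Transcripts of Igf2 begin at several places. Igf2-203 begins at the first, and Igf2-201 and Igf2-202 begin 9320 and 9350 bases downstream. RefSeq promoter windows (GRCm38.p6) were at hand for 9 of the 10 genes, all but Insr, with 13 windows in all, 4 of them for Igf2. Of these 4, those of Igf2-203 and Igf2-201 have a RefSeq start exactly at the start that GENCODE gives. The 250 bases before each are shown because these windows could be tied to a listed start; the capitals mark matches to GGGCGG (GC box) and CCAAT on either strand (chr7:142666817-142667066 and chr7:142657497-142657746, minus strand, 5′ to 3′).
Igf2-203 upstream: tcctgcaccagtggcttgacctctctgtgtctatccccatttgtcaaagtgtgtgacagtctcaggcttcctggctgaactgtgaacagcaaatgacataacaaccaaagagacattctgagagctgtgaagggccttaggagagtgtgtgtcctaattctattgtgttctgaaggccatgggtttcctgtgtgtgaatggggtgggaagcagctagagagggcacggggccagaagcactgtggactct
Igf2-201 upstream: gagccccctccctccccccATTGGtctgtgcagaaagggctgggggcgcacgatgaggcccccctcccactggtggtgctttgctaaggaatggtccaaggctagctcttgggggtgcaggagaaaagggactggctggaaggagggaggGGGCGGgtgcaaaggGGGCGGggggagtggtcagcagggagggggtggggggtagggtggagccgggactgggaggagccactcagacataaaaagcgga

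The upstream Igf2 window held none of the letters searched, and the downstream one held 2 GC boxes and 1 CCAAT. Igf2-203, the 1 transcript of the most upstream start, held 38.0% and 38.5% of Igf2 TPM but 17.5% and 18.2% of its reads. Only its first exon of 41 bases marks that start, and its other exons are shared with transcripts of other starts. How much Igf2 RNA came from each start was not tested. Transcripts from the downstream start, Igf2-201 and Igf2-202, together held 12.0% and 12.4% of Igf2 TPM, and 24.7% and 26.2% of its reads. The start of Igf2-205, whose nearest RefSeq window begins 685 bases away and is not shown, held 28.2% and 25.2% of the reads, and models that begin inside the gene held 37.7% and 37.2% of the TPM. Over the 13 windows of the 9 genes, each of 300 bases that run from 250 before to 50 after the start, TATAAA was found in 1 (Igfbp4), GGGCGG in 6 and CCAAT in 2, counted on either strand. Of all 32851 RefSeq promoter windows of that length, 13.6% held TATAAA, 35.7% GGGCGG and 37.4% CCAAT. The matches describe the letters only.

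Igf1 was made mainly as Igf1-202, a 7052 nt coding transcript at 20.1 and 17.9 TPM, 65.9% and 64.0% of the gene. Igf1-206 followed at 4.42 and 5.83 TPM, 14.5% and 20.8%, and Igf1-203 at 3.44 and 2.67 TPM, 11.3% and 9.55%. These transcripts differ at both ends of the coding frame. Igf1-203 and Igf1-206 contain an exon of 52 bases that Igf1-202 lacks, and which separates the Eb from the Ea form of the precursor's tail. Igf1-202 and Igf1-203 begin in the first leader exon and Igf1-206 in the second, so that the precursor starts with different residues. The exon and the first coding bases of both leaders are shown because they define these classes; the start codon is in capitals (GRCm38, plus strand, chr10:87915298-87915349, chr10:87859350-87859412 and chr10:87861371-87861385).
Igf1 52-base exon: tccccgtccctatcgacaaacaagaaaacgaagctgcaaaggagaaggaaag
Igf1-202 first coding part: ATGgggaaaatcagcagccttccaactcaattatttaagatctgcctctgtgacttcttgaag
Igf1-206 first coding part: ATGaccgcacctgca

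Igf1 transcripts with the 52-base exon held 25.8% and 30.4% of Igf1 TPM, a mean of 28.1% ± 3.27 (SD, n = 2). Those that begin in the first leader exon held 77.7% and 73.9%, and those of the second leader exon 22.4% and 26.1%. By reads the minor classes were smaller, since their models are short: the 52-base exon class held 5.18% and 5.50% of Igf1 reads. The estimate for Igf1-206 rested on 71.5 and 88.2 reads, and that for Igf1-203 on 159 and 115.

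Antisense RNAs overlap both imprinted genes. Igf2os, antisense to Igf2, stood at 1.60 and 1.45 TPM and shares 98 exonic bases with it, 1.71% of the exonic bases of Igf2. The read estimates of Igf2 and Igf2os were not whole numbers but summed to the whole numbers 36927 and 37252, so reads were divided between them. Airn, the long antisense RNA that begins inside Igf2r, stood at 34.7 and 38.1 TPM and shares no exonic base with Igf2r. The strand setting of the counting is among the details not given in the sources used here. Without strand, reads of a gene and its antisense partner in shared bases cannot be told apart.

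The other genes of the pathway were taken from a list of 41, of which all were matched. Both libraries held 33 of them at 1 TPM or more. The median of the 41 was 7.51 TPM, against 53.6 TPM for the 10 genes above. The 41 include binding proteins, Igfbp6 at 2.90 and 2.88 TPM and Igfbp1 at 0.29 and 2.02 TPM. The division into lists was made with earlier results known, so the medians do not compare the family with its pathway. The highest of the 41 was H19, an imprinted non-coding RNA, at 619 and 716 TPM. It lies 72622 bases from Igf2 and shares its enhancers. Grb10, an imprinted adaptor that restrains insulin and IGF1 receptor signalling, followed at 383 and 438 TPM. The next were Grb2, an adaptor to Ras, at 68.6 and 69.2 TPM, M6pr, the other mannose 6-phosphate receptor, at 55.3 and 62.5 TPM, the kinase Akt2 at 57.0 and 59.5 TPM and the Grb10 relative Grb14 at 51.3 and 57.7 TPM. H19 and Grb10 were thus the only 2 of the 41 above Igfbp4. Between the libraries, none of the 35 listed genes with enough reads, a mean count of at least 50, was 2-fold apart. Over all 12804 protein-coding genes with that count, only 0.711% were at least 2-fold higher and 0.226% at least 2-fold lower in replicate 2.

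**Figure D4:**
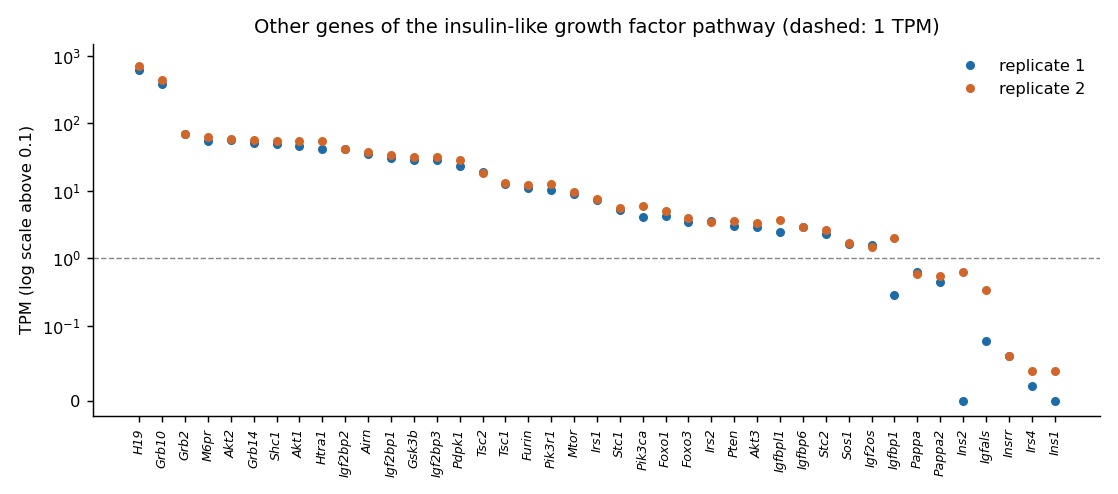
TPM of the 41 other pathway genes in replicate 1 (blue) and replicate 2 (orange), ordered by mean, on an axis that is logarithmic above 0.1; the dashed line marks 1 TPM. H19 and Grb10 lead, and the libraries part at the low end, where Igfbp1 is at 0.29 and 2.02 TPM.

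Below 1 TPM in both libraries were 7 genes: the insulin genes Ins1 and Ins2, the insulin receptor relative Insrr, the adaptor Irs4, the serum complex protein Igfals, and Pappa and Pappa2, proteases that cut IGF-binding proteins. Pappa, which cleaves IGFBP4, stood at 0.62 and 0.59 TPM from 200 and 177 reads. Ins2 had 0 reads in replicate 1 and 6 in replicate 2, and Ins1 had 0 and 1. Igf1, the lower of the IGF ligands, had 4441 and 3702 reads. Igfbp1, a binding protein known from the liver and chosen for mention after its values were seen, crossed the threshold from 0.29 TPM (12 reads) to 2.02 TPM (79 reads).

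Replicate 2 was set against replicate 1 by the log2 ratio of counts scaled with TMM factors, with 0.5 added, which compares 2 libraries and not conditions. None of the 10 genes was 2-fold apart in either direction; of the 12804 protein-coding genes whose mean count reached 50, 0.711% were at least 2-fold higher and 0.226% at least 2-fold lower in replicate 2. The middle 90% of those genes lay between -0.34 and 0.27, and that of the 8867 with the most reads between -0.21 and 0.18. The ratios of the 10 genes ran from -0.31 for Igf1 to 0.07 for Insr. Their median was -0.04, beside -0.01 over all these genes.

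Igf1 and Igfbp5 had the lowest ratios of the 10. Igf1, with 4441 and 3702 reads, had a log2 ratio of -0.31 (95% counting interval -0.37 to -0.24). Igfbp5 had 16930 and 14601 reads, a log2 ratio of -0.26 (-0.29 to -0.23). These exact binomial intervals cover counting error only. Ratios lower than that of Igf1 occurred in 5.97% of the 12804 protein-coding genes with enough reads, and lower than that of Igfbp5 in 8.13%. Both ratios lay below the range of -0.21 to 0.18 given above for the 8867 genes with the most reads. Igf1 and Igfbp5 were also the 2 of the 10 that were lower in TPM, by 0.12 on the log2 scale for each, while scaling to the spike-ins put all 10 higher in replicate 2.

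The other 8 lay between -0.09 (Igfbp3) and 0.07 (Insr), and 2 of the 10, Insr and Igfbp7, were above 0. By TPM 8 were above 0, on a scale where the median of all genes was 0.14. Igf2 was at -0.03 (95% counting interval -0.05 to -0.01) and Igf2r at -0.06 (-0.08 to -0.04), the narrowest intervals of the 10.

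**Figure D5:**
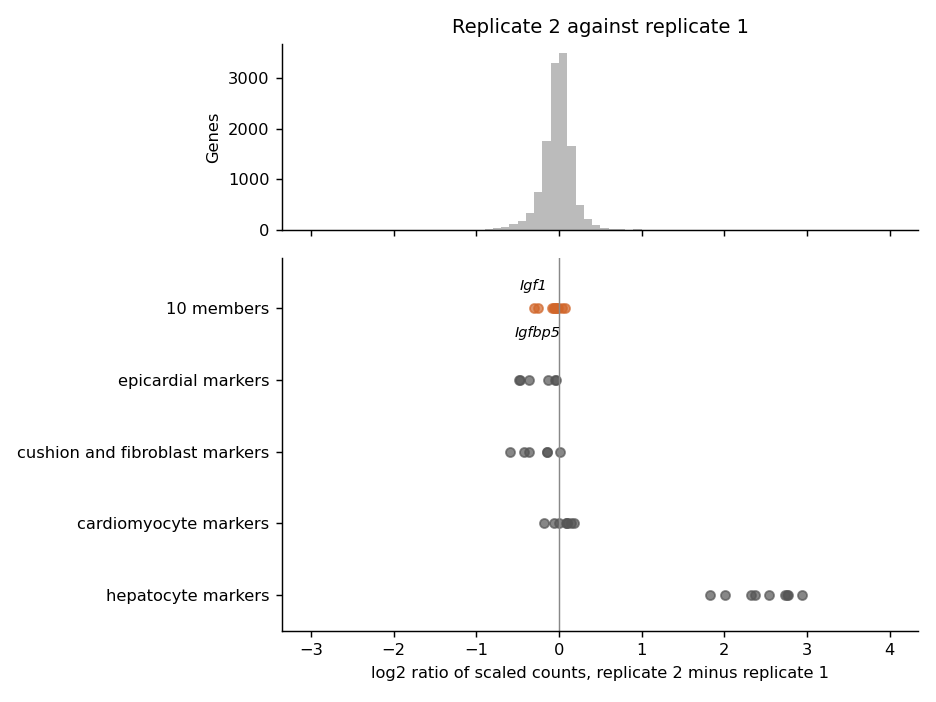
Top: number of protein-coding genes by log2 ratio of scaled counts, replicate 2 minus replicate 1, in bins of 0.1. Bottom: the same ratio for the 10 IGF axis genes (orange) and markers of 4 cell types (grey, where the mean count reached 50). Igf1 at -0.31 and Igfbp5 at -0.26 lie on the side of the epicardial and of most cushion and fibroblast markers. Most macrophage, lung and foregut, and endothelial markers, which are not drawn, were on that side too. The 9 hepatocyte markers lie apart on the right.

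Markers of some cell types moved in the same direction as Igf1 and Igfbp5. Of the epicardial markers, 6 of 6 were lower in replicate 2, the median being -0.24 on the log2 scale. They ran from -0.49 (Aldh1a2) to -0.04 (Tcf21). Their summed level was 232 and 217 TPM, with Wt1 at 20.3 and 18.2 TPM but Tcf21 at 48.3 and 51.8 TPM. Of the cushion and fibroblast markers, 5 of 6 were lower with a median of -0.26, and their sum was 1329 and 1150 TPM. Col1a1 had the lowest ratio of that list, -0.59, at 463 and 340 TPM. Postn was at 0.01 with 149 and 165 TPM, and Lum stood at 87.4 and 87.1 TPM. The 8 cardiomyocyte markers had a median of 0.09 and summed to 26796 and 31869 TPM. By this ratio most markers of some other lists were lower too. They were 5 of 6 macrophage markers (median -0.22, sum 148 and 164 TPM), with Lyz2, the highest of them, higher at 73.3 and 97.8 TPM. So were 4 of 5 lung and foregut markers (median -0.25, sum 22.9 and 22.4 TPM) and 5 of 6 endothelial and endocardial markers (median -0.08, sum 168 and 178 TPM). These sums are in TPM, where the median gene was 0.14 higher in replicate 2 on the log2 scale. The smooth muscle and pericyte list went the other way, with 5 of 6 higher (median 0.15, sum 1108 and 1281 TPM). So did the 2 skeletal muscle markers with enough reads (median 0.69). The median over all protein-coding genes with enough reads was -0.01. No marker of these lists was at 0 in either library. The part of these cell types in the ratios of Igf1 and Igfbp5 was not tested.

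Hepatocyte markers differed far more than any of the 10 genes. All 9 with enough reads were at least 2-fold higher in replicate 2, the median being 2.54 on the log2 scale, and Afp stood at 22.0 and 165 TPM and Alb at 7.29 and 40.3 TPM. Igfbp1 moved by 2.62 on the same scale (95% counting interval 1.79 to 3.69), with a mean count below 50. Igfals had 5 and 19 reads. The part of hepatocyte RNA in these values was not tested. Erythroid markers differed in both directions: 3 of 6 were higher and 3 lower in replicate 2, and their sum was 44708 and 29509 TPM. The globin gene Hbb-y stood at 32286 and 19948 TPM, while the regulators Klf1 and Gata1 were higher in replicate 2 by 1.59 and 1.17 on the log2 scale of scaled counts. The part of erythroid RNA in the values of the 10 genes was not tested. Leaving the 10 hepatocyte and 6 erythroid markers out of the scaling gave the same ratios for Igf1 and Igfbp5, -0.31 and -0.26. That step removes few genes and changes only the scaling factors. It cannot show how much RNA of those cells entered the counts.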

How the data were processed

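Total RNA above 200 nt was sequenced from 10 ng of input with spike-in RNA, per the labels. The deposited expected counts are estimated reads per gene and transcript, without normalization, estimated library by library after alignment to the transcriptome (mm10, annotation M4), per the deposited file descriptions (aligner and quantifier: not given in the sources used here). Deposited TPM values are scaled to the same sum, spike-ins included, per the file headers. The deposited percent columns give a transcript's share of the gene TPM, and the deposited interval bounds are a signal in TPM of unstated level. Such estimates divide reads that several transcripts share, and TPM favours short models at equal reads.

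Identifiers were matched to GENCODE M21 (GRCm38), and 42462 of 43346 matched, as did 38 of the 39 transcripts of the 10 genes. Expected counts were rounded and scaled with edgeR 4.0.16 (TMM), or DESeq2 1.42.0 size factors as an alternative. Python 3.11.15 served otherwise. All 10 members were named, with transcripts of at least 10% of a gene, the 6 highest pathway genes and those below 1 TPM in both libraries, and the defining markers of cell types. The members and lists were chosen with earlier results of these data known. The scripts were tested on simulated data. The files of the libraries did not hold the same counts; they were treated as replicates because the labels number them so.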

Additional observations from a re-analysis of the deposited data

How the results depend on the processing

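All 10 genes stayed detected and the number with a major transcript stayed at 8 under each alternative run. The pairs called numbered 42 to 45 of 45, and the 45 came from leaving out replicate 2. The main counts were close to their highest possible values, so these runs could hardly raise them. The run with posterior means reused the deposited intervals, so its 42 pairs add little. By share of reads instead of TPM, 2 genes had another leading transcript, Igfbp4-201 in both libraries and, for Igf2, Igf2-205 in replicate 1 and Igf2-208 in replicate 2. Over protein-coding transcripts, an alternative chosen after seeing the data, the log2 ratio of Igf2 to Igf1 was 4.44, of Igf2r to Igf1r 3.26, of Igfbp4 to Igfbp5 0.58 and of ligands to binding proteins 0.90, and that of Insr to Igf1r reversed to -1.45, because Insr-202 is left out by construction. With 1 TPM added, Igf2r to Igf1r was 3.20 and Insr to Igf1r 1.64. With posterior means Igf2r to Igf1r was 3.31, the same as in the main run at this rounding. Genes at least 2-fold higher and lower in replicate 2 numbered 91 and 29 as reported, 11943 and 4 with spike-in scaling, 268 and 208 at a minimum count of 10, 26 and 6 at 200, and 559 and 489 with 1 read in each library. Spike-in scaling moved the median of all genes to 1.28 and put 9 of the 10 members at least 2-fold higher, with Igf1 at 0.98; relative to that median Igf1 was at -0.30 and Igfbp5 at -0.25. Leaving out a replicate gives no replicate ratio. No paired analysis was possible because the series holds 1 group. With 2 libraries each SD has 1 degree of freedom, and transcript shares at under 100 reads, as for Igf1-206, are the least precise.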
